A study of Homo sapiens with 6 samples.

Results

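LIF and the interleukin-6 family of cytokines were followed in the human breast cancer line Hs578T, an established line here carrying an inducible gene for the homeobox transcription factor HOXA5. The 10 member genes were LIF, IL6 and IL11 (ligands), LIFR, IL6ST and OSMR (receptor chains), JAK1 and STAT3 (kinase and transcription factor), and SOCS3 and SOCS2 (inhibitors). They were chosen by name, with LIF known from earlier results of these arrays to be higher at 6 h and 9 h than at 0 h. All 19 probe sets that the probe table assigns to these symbols were taken, out of 22283 on the Affymetrix array, and the 10 genes are set beside 10444 genes tested in all. Each of the 19 lay above the intensity floor in at least 2 of the 6 arrays and was tested. RNA came from uninduced cells (0 h) and from cells induced for 6 h and 9 h, in 2 experiments that the labels call batches of RNA, which gave 2 arrays to each of the 3 groups. All groups carry the inducible gene. The inducing agent and its dose, and whether the line was 1 clone, are not given in the sources used here, and no uninduced arrays at 6 h or 9 h were analysed here, so time in culture and the agent cannot be told apart from HOXA5. Probe sets naming HOXA5 were not analysed here. P-values measure the spread between these arrays, which may be technical.

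The cytokines of this family signal through receptor complexes that share IL6ST, the signal-transducing chain also called gp130. LIF binds LIFR paired with IL6ST, oncostatin M can use OSMR paired with IL6ST, and IL6 and IL11 each need a receptor of their own beside IL6ST. The receptors carry Janus kinases such as JAK1, which phosphorylate STAT3; STAT3 then enters the nucleus and switches on genes that include SOCS3, an inhibitor that closes the loop. In mesenchymal breast cancer lines such cytokines can act on the cells that make them.

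Regulatory sequence was available for 8 member genes, but not for LIF or SOCS2, as RefSeq windows of 250 bases before and 50 bases after the gene start on GRCh38.p14. The windows of IL6 and IL11 are shown because these ligands use the same signal-transducing chain and moved differently across the arrays. They lie at chr7:22726950-22727249 on the plus strand and chr19:55370414-55370713 on the minus strand. Capitals mark matches to the motifs searched on both strands.
IL6: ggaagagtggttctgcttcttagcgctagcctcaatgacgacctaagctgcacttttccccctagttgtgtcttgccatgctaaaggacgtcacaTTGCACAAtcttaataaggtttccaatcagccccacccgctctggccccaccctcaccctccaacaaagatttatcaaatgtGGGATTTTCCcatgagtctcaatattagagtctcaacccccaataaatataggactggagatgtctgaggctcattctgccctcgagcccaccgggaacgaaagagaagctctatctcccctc
IL11: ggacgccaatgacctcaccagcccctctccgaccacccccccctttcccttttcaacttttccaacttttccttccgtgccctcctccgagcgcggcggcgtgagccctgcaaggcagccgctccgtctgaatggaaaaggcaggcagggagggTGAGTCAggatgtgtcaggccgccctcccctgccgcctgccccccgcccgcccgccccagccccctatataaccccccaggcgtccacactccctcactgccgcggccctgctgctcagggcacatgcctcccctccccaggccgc

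In the IL6 window the capitals are a match to the C/EBP motif TTNNGNAA at -155 to -148 from the gene start and a match to the NF-kB consensus at -73 to -64. In the IL11 window they are a match to the AP-1 motif TGANTCA at -96 to -90, a palindromic motif read on both strands. Among all 35114 windows of this length in the table, 36.8% held the C/EBP motif, 11.3% the NF-kB consensus and 7.71% the AP-1 motif. Of the 8 member windows, 4 held the C/EBP motif (IL6, LIFR, OSMR and SOCS3), 2 the NF-kB consensus (IL6 and IL6ST), 2 the AP-1 motif (IL11 and OSMR) and 1 the STAT motif TTCNNNGAA (LIFR, at -165 to -157), against 7.66% of all windows for the last. The CRE motif TGACGTCA (1.85% of all windows), the EGR motif GCGNGGGCG (9.43%), the HOX core TAATTA (4.84%) and the TATA box TATAAA (11.5%) were found in 0 of the 8, which says only that these letters are not in these windows. LIF and SOCS2 are not among the 8, so these counts say nothing of them. Matches are letters in a sequence and no evidence of binding.

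The arrays differed in brightness, with medians of the deposited intensities from 18.7 to 95.7, so values were quantile normalised and a floor was set at the 25th percentile, 12.7 intensity units. All levels below are normalised intensities, to be compared within a probe set and not between probe sets, and changes are relative to the whole array. Before scaling, the median probe set had a log2 change of -1.35 at 6 h and -0.57 at 9 h. Of 11 measured mesenchymal markers 10, among them VIM, FN1 and AXL, had a probe set above the floor in all 6 arrays. Of 12 luminal epithelial markers 9 were above it in all 6, among them KRT18 at 781 to 3510, and EPCAM and KRT19 were at the floor in all 6. Of 13 leukocyte markers 7 were above it in all 6, and of 7 endothelial markers 1. The floor is a rank within the array and not a detection call, so these counts do not identify the line. LYZ, CDH5, CLDN5 and TIE1 were at the floor throughout. The summed level of the leukocyte markers, which mark cells that can make IL6, was 883 to 1019 at 0 h, 834 to 1341 at 6 h and 743 to 954 at 9 h. Most of each sum came from LCP1, an actin-bundling protein that tumour cells can also make, which read 462 to 962, so the sum follows that gene more than the class.

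LIF, a cytokine first known for making leukaemia cells differentiate, had the largest difference between times among the members. Its probe set 205266_at read 28.0 in experiment 1 and 76.4 in experiment 2 at 0 h. At 6 h it read 185 and 376, and at 9 h 279 and 435. Every induced array lay above both 0 h arrays, and the 6 h and 9 h arrays overlapped. The log2 change was 2.51 ± 0.58 at 6 h and 2.91 ± 0.58 at 9 h against 0 h (standard error, n = 2 arrays per group), a 5.71-fold and a 7.53-fold difference. Within experiment 1 it was 2.73 and 3.32, and within experiment 2 it was 2.30 and 2.51. The step from 6 h to 9 h was smaller, 0.59 and 0.21 in the experiments, with a mean of 0.40 ± 0.58. With a term for the experiment the standard error was 0.30, so the mean was less than its error in the unpaired fit only. In deposited intensities, with no scaling, LIF read 55.3, 62.2 and 325.9 at 0 h, 6 h and 9 h in experiment 1 and 78.7, 258.4 and 340.1 in experiment 2. The unscaled log2 change of LIF was 0.17 and 1.72 at 6 h, when the median probe set moved by -2.27 and -0.42, and 2.56 and 2.11 at 9 h, when it moved by -0.85 and -0.26. LIF is the gene that led to the choice of this set, so these values describe it and are given with no test.

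**Figure D1:**
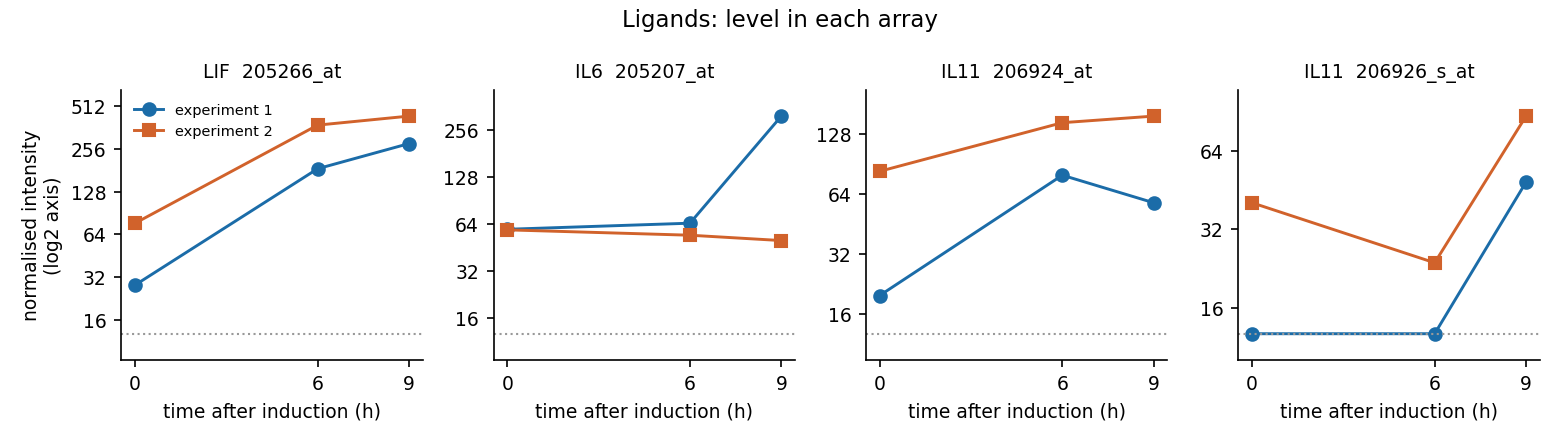
Normalised intensity of the 4 ligand probe sets (log2 axis, intensity units) against hours after induction, 1 point per array, with circles for experiment 1 and squares for experiment 2 and a dotted line at the floor of 12.7. LIF is higher at 6 h and 9 h in both experiments (from 28.0 to 279 and from 76.4 to 435), IL6 reads 312 in 1 array and 50.1 to 64.7 in the other 5, and the 2 IL11 probe sets differ at 6 h.

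IL6, the cytokine that names the family and drives the acute-phase response, did not follow LIF. Its probe set 205207_at read 59.2 and 58.7 at 0 h, 64.7 and 54.2 at 6 h, then 312 and 50.1 at 9 h, in experiments 1 and 2. A single array, that of 9 h in experiment 1, stood above the other 5, which lay between 50.1 and 64.7, and the groups overlapped at every time. At 9 h the change within experiment 1 was 2.40 on the log2 scale and within experiment 2 it was -0.23 (0.0006 when arrays were scaled by their trimmed means). The mean of 1.09 ± 0.79 became -0.23 if experiment 1 lost its 9 h array and 2.42 if experiment 2 did. At 6 h the mean change was 0.01 ± 0.79. The array with the high IL6 value also had the highest ratios of 3' to 5' signal, a sign of RNA quality: 1.31 for GAPDH and 1.82 for ACTB, against 0.863 to 1.12 and 0.918 to 1.09 in the other arrays. Their part in the IL6 value was not tested.

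IL11, a cytokine that stimulates megakaryocytes and, from breast cancer cells, osteoclasts, was read by 2 probe sets. The brighter, 206924_at, read 19.8 and 83.4 at 0 h, 79.7 and 146 at 6 h, then 58.0 and 158 at 9 h. It was higher at both induced times within each experiment, by 2.01 and 0.81 at 6 h and by 1.55 and 0.92 at 9 h on the log2 scale, yet the groups overlapped because experiment 2 lay above experiment 1 throughout. Without scaling its changes were -0.48 and 0.34 at 6 h, when the median probe set moved by -2.27 and -0.42, and 0.58 and 0.63 at 9 h. The 6 h difference in experiment 1 is thus one relative to the whole array. The mean changes were 1.41 ± 0.80 and 1.24 ± 0.80. Leaving out experiment 1's uninduced array gave 0.38 and 0.20 in the unpaired fit, and leaving out experiment 2's gave 2.41 and 2.24. Both refits include the difference in level between the experiments. Within experiment 1 the changes were 2.01 and 1.55, and within experiment 2 they were 0.81 and 0.92. The dimmer, 206926_s_at, read 12.7 (the floor) and 40.4 at 0 h, 12.7 and 23.8 at 6 h, then 48.5 and 86.7 at 9 h. Both of its 9 h arrays lay above all others, with changes from 6 h to 9 h of 1.93 and 1.87 in the experiments, the former from the floor and so a lower bound. At 6 h the probe sets disagreed, since 206926_s_at was at the floor at both times in experiment 1 and had -0.76 in experiment 2. Both were higher at 9 h than at 0 h in both experiments.

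LIFR, the receptor chain that binds LIF, had 1 probe set, 205876_at, which read 47.1 and 29.6 at 0 h, 28.9 and 24.7 at 6 h, then 51.6 and 27.2 at 9 h. Both 6 h arrays lay below both 0 h arrays by a small margin, with changes of -0.70 and -0.26, the second of which was 0.12 under trimmed mean scaling. The mean change was -0.48 ± 0.50 at 6 h and 0.01 ± 0.50 at 9 h. With a term for the experiment the standard error was 0.46, so the 6 h change was close to the size of its error in either fit. The level of LIFR was thus close to its 0 h value at 9 h, when that of LIF was at its highest in both experiments.

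IL6ST, the shared signal-transducing chain, was read by 5 probe sets. The brightest, 212195_at, read 524 and 402 at 0 h, 576 and 448 at 6 h, then 820 and 573 at 9 h. It was the one IL6ST probe set whose 9 h arrays both lay above the 0 h arrays, with changes of 0.65 and 0.51 in the experiments and a mean of 0.58 ± 0.30. The other 4 had mean changes at 9 h between 0.01 and 0.29 with standard errors of 0.31 to 0.45, and each had opposite signs in the 2 experiments. At 6 h the 5 probe sets had mean changes from -0.11 to 0.26, all within their errors. In unscaled values 212195_at at 9 h was 0.01 and -0.04, so its difference is one relative to the whole array.

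OSMR, the receptor chain for oncostatin M, read 229 and 116 at 0 h, 228 and 178 at 6 h, then 235 and 194 at 9 h on probe set 205729_at. Experiment 1 was level within 0.04 of its 0 h value on the log2 scale at 9 h, while experiment 2 was higher by 0.62 at 6 h and 0.74 at 9 h. The mean changes, 0.31 ± 0.40 and 0.39 ± 0.40, were within these errors, but not within the 0.29 of the fit with a term for the experiment. Without the 0 h array of experiment 2 the unpaired fit gave -0.18 and -0.10, which includes the difference in level between the experiments. Within experiment 1 the changes were -0.01 and 0.04.

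JAK1, the tyrosine kinase bound to IL6ST, read 934 and 401 at 0 h, 588 and 460 at 6 h, then 908 and 471 at 9 h. Experiment 1 had a change of -0.67 at 6 h and experiment 2 one of 0.20, so the mean of -0.23 ± 0.47 joined opposite signs. At 9 h the mean was 0.10 ± 0.47. The difference between the experiments at 0 h was larger than any difference between times within experiment 2.

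STAT3, the transcription factor that carries the signal to the nucleus, was read by 2 probe sets. The brighter, 208991_at, read 631 and 403 at 0 h, 562 and 409 at 6 h, then 954 and 399 at 9 h, which in experiment 2 is a range of 399 to 409 across all times. Its mean changes were -0.07 ± 0.45 and 0.29 ± 0.45. Within experiments 1 and 2 the 9 h change was 0.595 and -0.016. In the unpaired fit it was -0.33 with experiment 1's array of 9 h left out and 0.93 with experiment 2's left out. Those refits include the difference in level between the experiments. The other probe set, 208992_s_at, read 286 and 189 at 0 h, 216 and 52.4 at 6 h, then 280 and 142 at 9 h. Its lowest value, in the 6 h array of experiment 2, gave a change of -1.85 there that 208991_at did not share (0.02). Over the 2 arrays of 6 h it had a mean change of -1.13 ± 0.68.

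SOCS3, the STAT3-induced inhibitor that binds the receptor complex and blocks Janus kinases, was read by 3 probe sets that did not move together. The brightest, 206360_s_at, read 93.2 and 56.4 at 0 h, 114 and 107 at 6 h, then 59.0 and 72.2 at 9 h. Its 6 h arrays lay above those of both other times, with a mean change of 0.61 ± 0.42 at 6 h and of -0.76 ± 0.42 from 6 h to 9 h, the latter by -0.95 and -0.57 in the experiments. By contrast 206359_at was at or near the floor at 0 h (12.7 and 14.6) and 6 h (12.7 in both arrays) and read 36.1 and 16.9 at 9 h. The third, 214105_at, read between 12.7 and 29.8 and overlapped between all groups. A direction for SOCS3 at 9 h therefore depends on the probe set: the mean was -0.15 ± 0.42 on the brightest and 0.86 ± 0.42 on 206359_at.

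SOCS2, a related inhibitor best known for damping growth hormone signalling, was lower at 6 h on both of its probe sets. The brighter, 203373_at, read 134 and 118 at 0 h, 114 and 84.4 at 6 h, then 268 and 92.3 at 9 h. The other, 203372_s_at, read 79.2 in both 0 h arrays, 37.9 and 66.4 at 6 h, then 111 and 83.0 at 9 h. On each the 6 h arrays lay below the 0 h arrays, with mean changes of -0.36 ± 0.53 and -0.66 ± 0.45, of which the change of 203372_s_at in experiment 2 was -0.01 under trimmed mean scaling. At 9 h the probe sets had 0.32 ± 0.53 and 0.28 ± 0.45, and the highest value of each came from the 9 h array of experiment 1. The same array held the highest value of IL6, LIFR, OSMR, STAT3 on 208991_at, IL6ST on 212195_at and SOCS3 on 206359_at. Without that array 203373_at had -0.44 at 9 h in the unpaired fit, and within experiment 2 its change was -0.36.

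**Figure D2:**
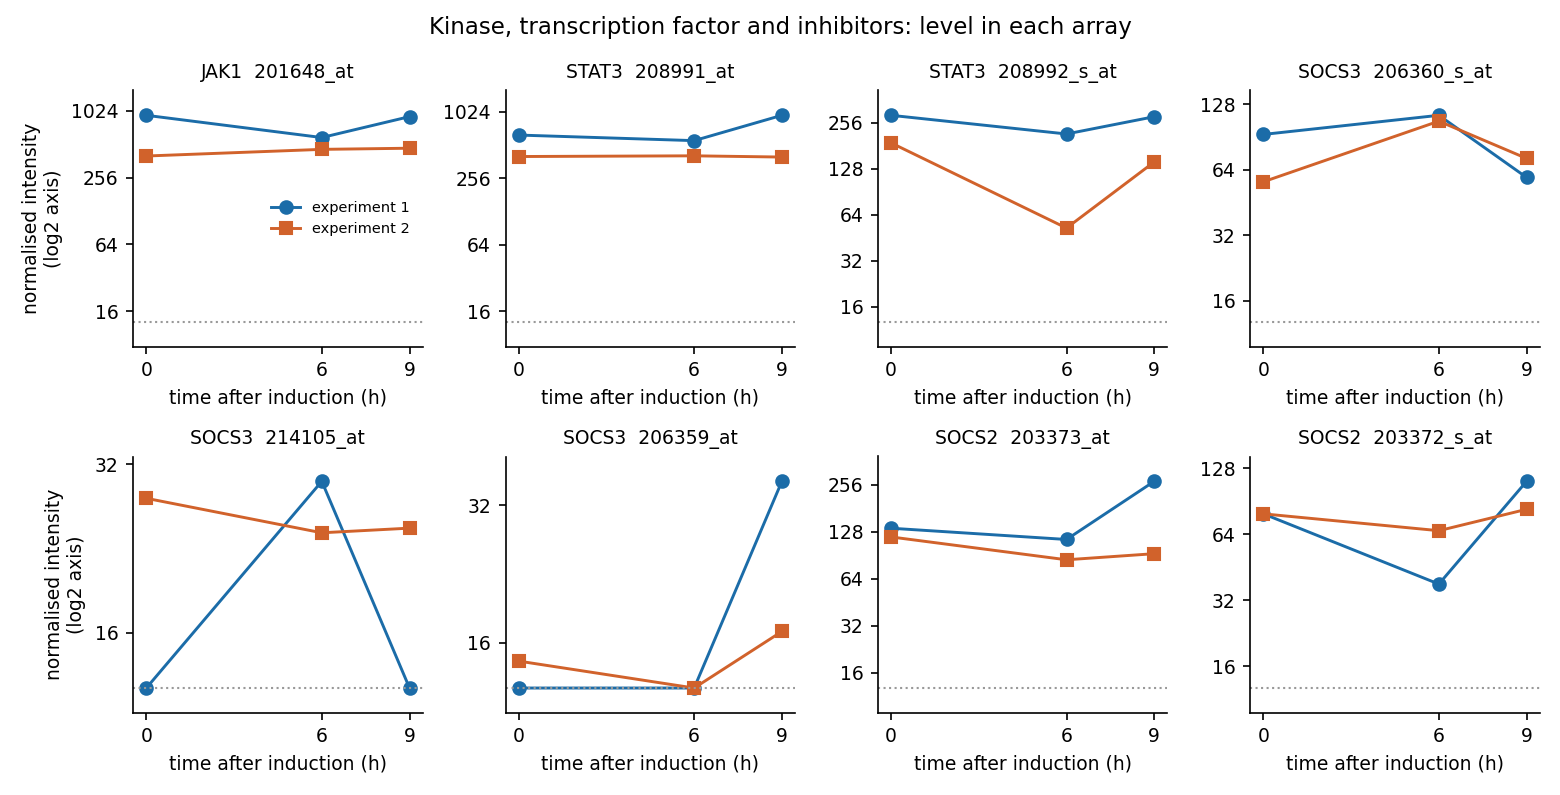
Normalised intensity of the 8 probe sets of JAK1, STAT3, SOCS3 and SOCS2 (log2 axis, intensity units) against hours after induction, 1 point per array, with circles for experiment 1, squares for experiment 2 and a dotted line at the floor. SOCS3 206360_s_at peaks at 6 h (114 and 107) while SOCS3 206359_at is highest at 9 h (36.1 and 16.9), and JAK1 and STAT3 208991_at are higher in experiment 1 than in experiment 2 at every time.

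Counted over the set, 1 of the 19 probe sets, LIF, was at least 2-fold higher at 6 h than at 0 h in both experiments, where 1.24% of all 18360 tested probe sets were. At 9 h there were 2, LIF and 206926_s_at of IL11, where 2.14% of all were. From 6 h to 9 h there was 1, the same IL11 probe set, where 1.02% of all were. None of the 19 was at least 2-fold lower in both experiments in these comparisons, against 1.25%, 1.23% and 0.855% of all. Since the set was chosen around LIF, nothing is read from these counts.

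Differences of any size in 1 direction were counted next. At 6 h, 4 of the 19 were higher than at 0 h in both experiments (25.3% of all probe sets were) and 4 lower (25.8% of all). At 9 h, 7 were higher (26.9% of all) and 1 lower (28.9% of all). From 6 h to 9 h, 12 were higher (27.1% of all) and 2 lower (25.9% of all). By another measure, the mean change of each gene on its brightest probe set, 8 of the 10 genes lay above the median change of all probe sets from 6 h to 9 h. Without the 9 h array of experiment 1, 4 did. That measure is not paired, since it then sets the 9 h array of experiment 2 against the 6 h arrays of both experiments. The arrays of the groups did not overlap for 2 higher and 3 lower probe sets at 6 h (16.1% and 16.2% of all), for 5 higher and 0 lower at 9 h (18.3% and 19.1% of all), and for 3 higher and 1 lower from 6 h to 9 h (14.9% and 15.1% of all). Probe sets of 1 gene share its RNA and the comparisons share arrays, so the counts are descriptions. By limma, with Benjamini-Hochberg adjustment over all probe sets, 0 of the 19 were called at 6 h, 0 at 9 h and 0 from 6 h to 9 h, as were 0% of all, while 875, 1360 and 968 of all passed 0.05 before adjustment. In the paired fit, with a term for the experiment, LIF was the 1 member called, at 9 h, where 0.327% of all probe sets were called higher. Since LIF led to the choice of the set on these same arrays, nothing is read from that call.

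**Figure D3:**
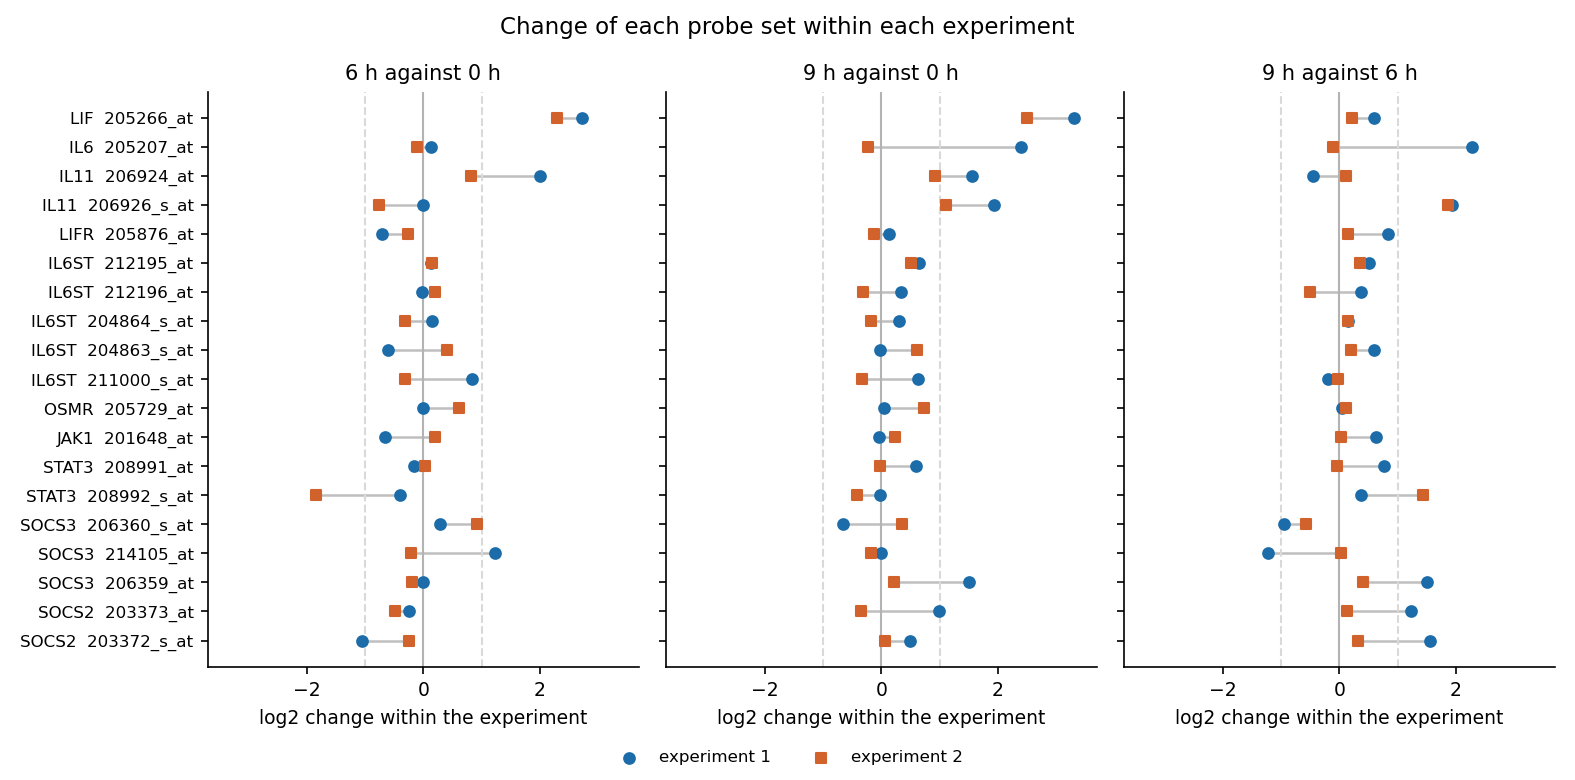
Log2 change of each of the 19 probe sets within experiment 1 (circles) and experiment 2 (squares) for the 3 comparisons, with dashed lines at a 2-fold change and a grey bar joining the experiments. LIF lies beyond 2-fold in both experiments at 6 h (2.73 and 2.30) and 9 h (3.32 and 2.51), and the bar of IL6 at 9 h reaches from -0.23 to 2.40.

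The experiments differed in level for many members at every time. LIF, both IL11 probe sets and 204864_s_at of IL6ST read higher in experiment 2 than in experiment 1 at all 3 times, 4 of 19 where 20.7% of all probe sets did. IL6, LIFR, 212195_at of IL6ST, OSMR, JAK1, both STAT3 probe sets and 203373_at of SOCS2 read higher in experiment 1, 8 of 19 where 17.9% of all did. LIF and, on 206924_at, IL11 thus had their lowest value in the 0 h array of experiment 1, in which JAK1 had its highest.

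Likeness to each ligand was measured as Pearson's r over the 6 arrays among 5751 genes with a probe set in range, and is given as a description, since 6 arrays of 2 experiments leave room for high values. The genes most like LIF were STC2, a secreted glycoprotein hormone (r = 0.996), the translation factor EIF5 (0.994), the kinase DYRK1A (0.990), the MAP kinase phosphatase DUSP1 (0.989) and the immediate-early factor EGR1 (0.988). STC2 read 228 and 461 at 0 h, 689 and 1060.0 at 6 h, then 942 and 1094 at 9 h. Those most like IL6 were KANK1 (0.987), PLSCR1 (0.974), SLC35A3 (0.965), EOGT (0.959) and MKRN2 (0.954), which share with it a highest value in the 9 h array of experiment 1: PLSCR1, a phospholipid scramblase, read 804 there and 307 to 385 elsewhere. Those most like IL11 on 206924_at were METTL13 (0.996), SMIM8 (0.990), NAV3 (0.989), ATPAF2 (0.986) and ABCC9 (0.983). NAV3, a neuron navigator protein, read 62.5 and 178 at 0 h, 168 and 293 at 6 h, then 152 and 373 at 9 h.

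Other genes of the pathway were taken from lists by role. Of all 10444 genes, 2812 (26.9%) were higher and 2607 lower in both experiments at 6 h, while 28.0% were higher and 29.5% lower at 9 h, and the counts in the lists below are to be read beside these shares. Of 2 further ligands tested, CNTF, a ciliary neurotrophic factor, had changes of 0.31 ± 0.50 at 6 h and 0.18 ± 0.50 at 9 h. Of 4 further receptor chains, 2 were higher and 0 lower in both experiments at 6 h, 1 was higher and 0 lower at 9 h, and 0 were higher and 1 lower from 6 h to 9 h. IL6R, the receptor that IL6 needs beside IL6ST, read 12.7 (the floor) and 26.9 at 0 h, 31.1 and 52.5 at 6 h, then 34.4 and 40.1 at 9 h. Its induced arrays all lay above its 0 h arrays, with mean changes of 1.13 ± 0.52 and 1.01 ± 0.52 that depend on the floor. Of 7 other kinases and STATs, 2 were higher and 0 lower in both experiments at 6 h, and 2 higher and 1 lower at 9 h. JAK2, another Janus kinase of these receptors, had mean changes of 0.59 ± 0.47 at 6 h and 0.83 ± 0.47 at 9 h. Of 7 adaptors, 2 were higher and 1 lower at 6 h, and 2 higher and 2 lower at 9 h. GAB1, which links the receptor to MAP and PI3 kinase, read 12.7, the floor, in both arrays of 0 h and 34.1 and 17.5 at 6 h, then 36.6 and 21.9 at 9 h, and the adaptor SHC1 had -0.43 ± 0.37 and -0.27 ± 0.37.

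Of 13 other inhibitors, 6 were higher and 3 lower in both experiments at 6 h, while 5 were higher and 2 lower at 9 h, with medians of 0.02 and 0.13. SOCS6, of the same family as SOCS3, read 49.0 and 37.6 at 0 h, 62.1 and 69.8 at 6 h, then 90.1 and 78.4 at 9 h, a change of 0.97 ± 0.41 at 9 h. The STAT-binding PIAS4 and the phosphatases PTPN1 and PTPN6 stayed between -0.17 and 0.32 in their mean changes at both times. Of 7 factors of mRNA decay and stability, which act on cytokine transcripts with AU-rich elements, 1 was higher and 2 lower at 6 h, while 2 were higher and 3 lower at 9 h. ZFP36, the decay factor tristetraprolin, read 141 and 96.9 at 0 h, 186 and 299 at 6 h, then 233 and 194 at 9 h, so that all induced arrays lay above both 0 h arrays. Its relative ZFP36L2 had -0.69 ± 0.45 and -0.63 ± 0.45.

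In normalised values, more of the genes known as STAT3 targets were higher than lower at 9 h. Of 34 tested, 11 were higher and 5 lower in both experiments at 6 h, and 18 were higher and 8 lower at 9 h, to be read against the shares of all genes given above. Without scaling, 10 were higher and 14 lower at 9 h, so the direction is one relative to the whole array. The median log2 change was 0.15 at 6 h and 0.33 at 9 h (0.55 and 0.36 within the experiments), beside 0.01 and -0.02 over all genes, and unscaled it was -1.17 and -0.25 beside -1.37 and -0.57. The larger of the 9 h medians, 0.55, is that of experiment 1, whose 9 h array had the 3' to 5' ratios of 1.31 and 1.82, and the part of RNA quality in the list's values was not tested. Without the 4 members that are also on the list, 16 of 30 were higher and 8 lower at 9 h. Many of these genes are also targets of other signals, such as MAP kinase or NF-kB. FOSL2, a FOS-related subunit of AP-1, read 128 and 146 at 0 h, 216 and 413 at 6 h, then 318 and 522 at 9 h. The early response gene IER3 read 687 and 489 at 0 h, 1610.0 and 1034 at 6 h, then 2740.0 and 856 at 9 h. On the other side, SERPINA3, an acute-phase protease inhibitor that STAT3 can switch on in liver, read 36.1 and 43.6 at 0 h, 15.4 and 13.8 at 6 h, then 12.7 (the floor) and 19.1 at 9 h, and the kinase PIM2 read 51.7 and 53.4 at 0 h, 48.6 and 40.8 at 6 h, then 18.1 and 12.7 (the floor) at 9 h. None of the pathway genes was called by limma, as 0 of all genes were. In the paired fit FOSL2 was called higher at 9 h (limma adjusted p = 0.0497), 1 of 34, beside 43 genes called higher and 4 lower of 10444. That call is of the brightest of 3 FOSL2 probe sets and lies just under the threshold. Since the lists were chosen with earlier results of these data known, nothing is read from it.

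**Figure D4:**
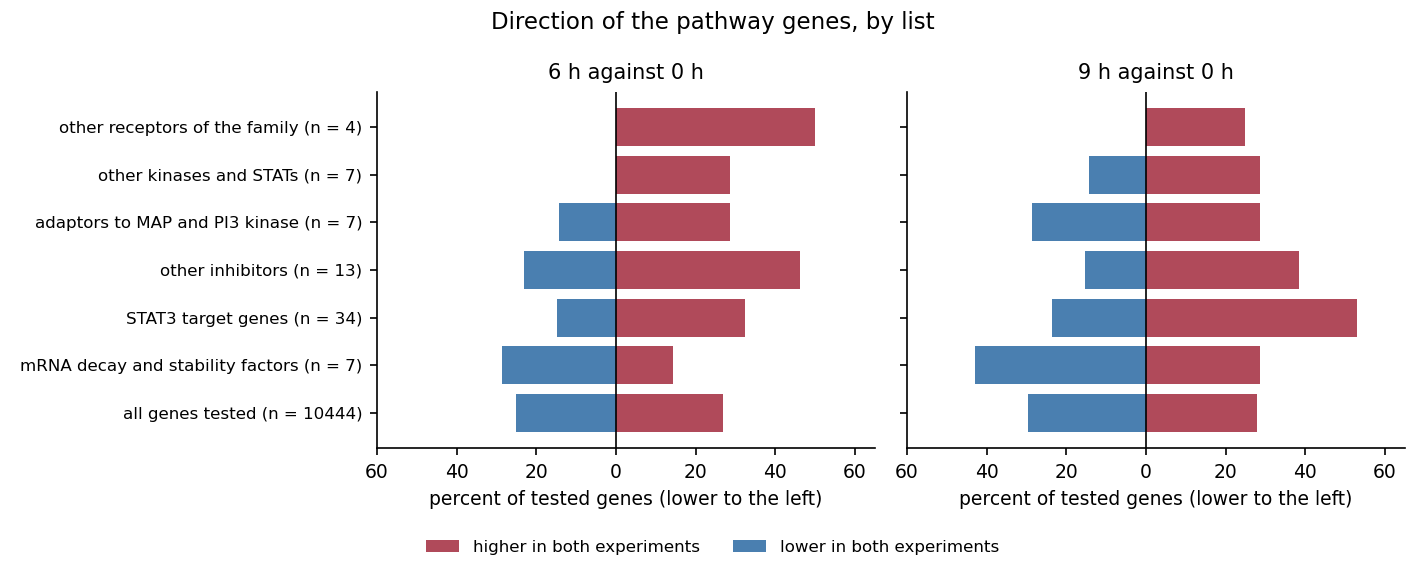
Percent of the tested genes of 6 pathway lists that were higher (right) or lower (left) than at 0 h in both experiments, at 6 h and 9 h, with all 10444 genes at the bottom and the number of genes tested in brackets. At 9 h the STAT3 targets have 52.9% higher and 23.5% lower, beside 28.0% and 29.5% of all genes, and the lists of 4 to 7 genes move by large steps for each gene.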

How the data were processed

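The authors deposited 1 linear intensity per probe set for each of 6 Affymetrix arrays; RNA was purified with TRIzol and RNeasy per the labels, and for the software that made them, nothing is given in the sources used here. Trimmed means (2% at each end) differed 5.49-fold, so arrays were quantile normalised, lower values were raised to a floor at the 25th percentile (12.7), and log2 was taken. Affymetrix controls (68) were left out, and 18360 probe sets with at least 2 of 6 arrays above the floor were fitted over all genes with limma 3.58.1 in R 4.3.3 (lmFit, contrasts, eBayes with trend; 3 residual degrees of freedom), two-sided, called at a Benjamini-Hochberg adjusted p under 0.05. Each ± is the standard error of this unpaired fit, so it includes differences between the experiments. The scripts were tested on simulated data. Symbols came from the platform's probe table, updated through Entrez numbers; 19071 probe sets had 1 symbol. A gene in a list is its brightest probe set.

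Since an experiment is 1 batch of RNA per the labels, its number pairs the arrays; deviations from the group means correlated at 0.247, 0.336 and 0.391 within experiments. For the 6 h array titled experiment 2, the lot line names experiment 1; the title was followed. The members and lists were chosen with earlier results of these data known. Named were all members, up to 4 genes per list with the largest change of 1 sign in both experiments at both times, and the 5 genes most like each ligand (at least 4 arrays above the floor and a log2 range of at least 1). The 2 arrays per group limit the precision of every value.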

Additional observations from a re-analysis of the deposited data

How the results depend on the processing

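The members' values were recomputed with the experiment or the lot line as a block, without scaling, with trimmed mean scaling, with no floor or one at the 10th percentile, without the filter, with 4 of 6 arrays above the floor, without the trend, with the median over probe sets, and without each array in turn. Counts of members and STAT3 targets higher or lower in both experiments were recomputed for the scaling, floor and filter settings alone, an addition made after the data were seen. LIF stayed higher at 6 h and 9 h than at 0 h in each of these, from 0.94 (unscaled) to 3.20 at 6 h and from 2.19 to 3.60 at 9 h. With the replicate block (paired arrays) 66 probe sets were called at 9 h and 0 in the other comparisons, and it changed no other call of a member; with the lot line as the block 0 were called. Without the filter 24, 12 and 18 probe sets were called at 6 h, at 9 h and from 6 h to 9 h, 0 of them members; the cause was not tested. Without scaling, which shifts all probe sets, members at least 2-fold higher in both experiments numbered 0, 1 and 2 and at least 2-fold lower 1 at 6 h; members higher in both numbered 1 and 4 and lower 12 and 8 at 6 h and 9 h, and 0 were lower from 6 h to 9 h. STAT3 targets higher then numbered 0 and 10 and lower 19 and 14. From 6 h to 9 h, 2 members were at least 2-fold higher with no floor or the lower floor, and with trimmed mean scaling 0 were lower at 9 h. Of 30 changes (10 genes, 3 comparisons) 13 had another sign unscaled, 4 under the lot-line block, and 11 without the 9 h array of experiment 1. With 2 arrays per group, precision is low: LIF, with changes of 2.51 ± 0.58 and 2.91 ± 0.58, was not called in the unpaired fit.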
